A study of Mus musculus with 3 samples.

Results

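Fgf23 and the genes that send and receive fibroblast growth factor (FGF) signals were followed through the reprogramming of infarct fibroblasts: the ligands Fgf1, Fgf2, Fgf7, Fgf10 and Fgf23, the co-receptor Kl and the receptors Fgfr1, Fgfr2, Fgfr3 and Fgfr4. These 10 of the 54532 genes in the tables were taken by their gene symbols. Fgf23 was chosen by its counts, which are the highest in the library labelled GMTMM, so its levels and the comparisons that use them are given as descriptions. At least 1 read was counted for 9 of the 10 genes, and 8 had over 10 counts in at least 1 library. Kl had no count and Fgfr4 had at most 6.

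FGF ligands bind receptor tyrosine kinases on the cell surface together with heparan sulfate, and the activated receptor signals through adaptor proteins to the kinase ERK, which switches on transcription factors and a set of feedback inhibitors. Most FGFs act on nearby cells. Fgf23 is a hormone instead: osteocytes and osteoblasts of bone release it, and it acts on the kidney, where an FGF receptor paired with the membrane protein Klotho, the product of Kl, lowers phosphate reabsorption and the active form of vitamin D. In the heart, Fgf23 is known for its link to cardiac hypertrophy, which has been tied to Fgfr4 without Klotho, and Fgf2 is known as a growth factor of fibroblasts and vessels.

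RNA of 3 mouse conditions was sequenced, each as a single library. MICFs are cardiac fibroblasts isolated 5 days after myocardial infarction from adult Myh6-mCherry mice, in which the promoter of the cardiac myosin gene Myh6 drives a red reporter, and they were cultured for the same time without virus. GMTMS-iCMs, induced cardiomyocytes, came from MICFs transduced with Gata4, Mef2c, Tbx5, Myocd and Sall4, and GMTMM-iCMs from MICFs transduced with Gata4, Mef2c, Tbx5, Myocd and Mesp1. The iCMs were kept with 1 ug/ml doxycycline, sorted for mCherry 4 weeks after transduction, and pooled from 5 sorted samples into each library. The fibroblasts were a primary isolate, and the design text names no mCherry sort for MICFs, so the sort and the virus cannot be told apart in a comparison with them.

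With 1 library per condition, no difference has a replicate check, and no p-value is given. Intervals are 95% intervals for counting error only, and reads are not independent molecules. In all 3 libraries RNA of several cell types was read together, so fewer cells of a type and less RNA per cell cannot be told apart.

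Totals of 10624118 to 11904484 counts were assigned to genes, and 20309 to 21178 genes had a count. The delivered factor Sall4 had no count in MICFs, 1190 counts in GMTMS-iCMs and 1060 under the label GMTMM, while Mesp1 had 0 in all 3, which goes against the label of the library named for Mesp1, so it is called "the library labelled GMTMM" throughout. The 8 cardiomyocyte markers, among them Myh6, summed to 1.29, 1318 and 489 FPKM (fragments per kilobase of transcript, scaled to library size) in the order MICFs, GMTMS-iCMs, library labelled GMTMM, which is kept from here on, with 4 markers at 0 in MICFs. The 8 fibroblast markers, among them Col1a1 and Pdgfra, summed to 1446, 219 and 2777 FPKM, and the 7 endothelial markers to 426, 11.7 and 313 FPKM. The 8 macrophage markers, among them Lyz2 and Csf1r, summed to 7543, 15730 and 7255 FPKM, so the cell labels cover libraries in which macrophage transcripts were abundant. The libraries also differed in Xist, with 11855, 5279 and 1618 counts, and in the sum of 4 Y-linked genes, with 0, 1630 and 1926 counts. The donors of MICFs and of the transduced libraries thus differed in their mix of sexes. In a comparison with MICFs this cannot be told apart from the virus and the sort.

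Among the 10 members Fgf23 had the widest range of FPKM. It (ENSMUSG00000000182) spans chr6:127072902-127081408 on the plus strand of GRCm38, with 3 exons of 339, 104 and 1371 bases, and no other gene's exon overlaps them. The 250 bases before the start of Fgf23, Fgf7 and Fgf10 are printed because Gata4, Mef2c, Tbx5 and the serum response factor partner Myocd were the delivered factors and because these 3 ligands had their highest FPKM in the same library. They were taken from the RefSeq promoter table of GRCm38.p6, in which 8 of the 10 members were found, and lie on the plus strand at chr6:127072652-127072901, chr2:126034408-126034657 and chr13:118714449-118714698. The last is before the RefSeq start of Fgf10, which lies inside the gene span of the count table. Capitals mark the letters GATAA (bound by GATA factors) and GGTGTG (bound by T-box factors) on either strand, so that CACACC is the second of these read from the opposite strand.
Fgf23: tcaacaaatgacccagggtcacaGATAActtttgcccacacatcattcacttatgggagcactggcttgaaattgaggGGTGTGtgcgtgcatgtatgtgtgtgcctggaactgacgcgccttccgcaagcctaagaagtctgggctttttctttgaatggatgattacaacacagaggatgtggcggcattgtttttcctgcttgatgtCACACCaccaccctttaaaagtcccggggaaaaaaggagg
Fgf7: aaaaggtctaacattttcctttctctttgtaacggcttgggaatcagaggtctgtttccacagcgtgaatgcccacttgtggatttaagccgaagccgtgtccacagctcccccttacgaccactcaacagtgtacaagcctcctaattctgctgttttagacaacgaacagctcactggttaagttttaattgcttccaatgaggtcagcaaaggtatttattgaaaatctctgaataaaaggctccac
Fgf10: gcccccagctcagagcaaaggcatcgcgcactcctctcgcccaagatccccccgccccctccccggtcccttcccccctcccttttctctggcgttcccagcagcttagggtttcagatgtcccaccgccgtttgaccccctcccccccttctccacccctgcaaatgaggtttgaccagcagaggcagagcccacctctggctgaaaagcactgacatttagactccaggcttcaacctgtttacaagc
The Fgf23 sequence holds GATAA once, at 227 to 223 bases before the start, and GGTGTG once on each strand, at 172 to 167 bases and at 40 to 35 bases before the start. Neither was found before Fgf7 or Fgf10. Of the 32851 promoters of this length in the table, 22.6% hold GATAA and 16.3% hold GGTGTG on either strand. The MEF2 motif and the CArG box, bound by MEF2 and serum response factor, were found in 2.92% and 1.47% of promoters and before none of the members in the table. No overlap between the 4 motifs occurred in the printed sequences. A match of letters is a description and not a measured site.

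Fgf23 was counted 23 times in MICFs, 72 times in GMTMS-iCMs, and 1080 times in the library labelled GMTMM. Its levels were 0.881 FPKM (0.559–1.32), 4.27 FPKM (3.34–5.38) and 51.0 FPKM (48.0–54.1), and the 3 counting intervals did not overlap. By FPKM it was the gene of rank 12627 of 21178 detected in MICFs, 7353 of 20309 in GMTMS-iCMs, then 1027 of 21021 in the library labelled GMTMM. The ratio of FPKM to MICFs was 4.85 (3.00–8.13) in GMTMS-iCMs but 57.8 (38.4–91.7) in the library labelled GMTMM, and the latter exceeded GMTMS-iCMs 11.9-fold (9.39–15.4). Thus both transduced libraries exceeded MICFs, and by very different amounts. On the log2 scale of quantile-normalized FPKM plus 1, the differences from MICFs were 1.57 and 4.70, and the second was the 23rd from the top of 15167 genes. Because this contrast chose the gene, the rank is a description.

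**Figure D1:**
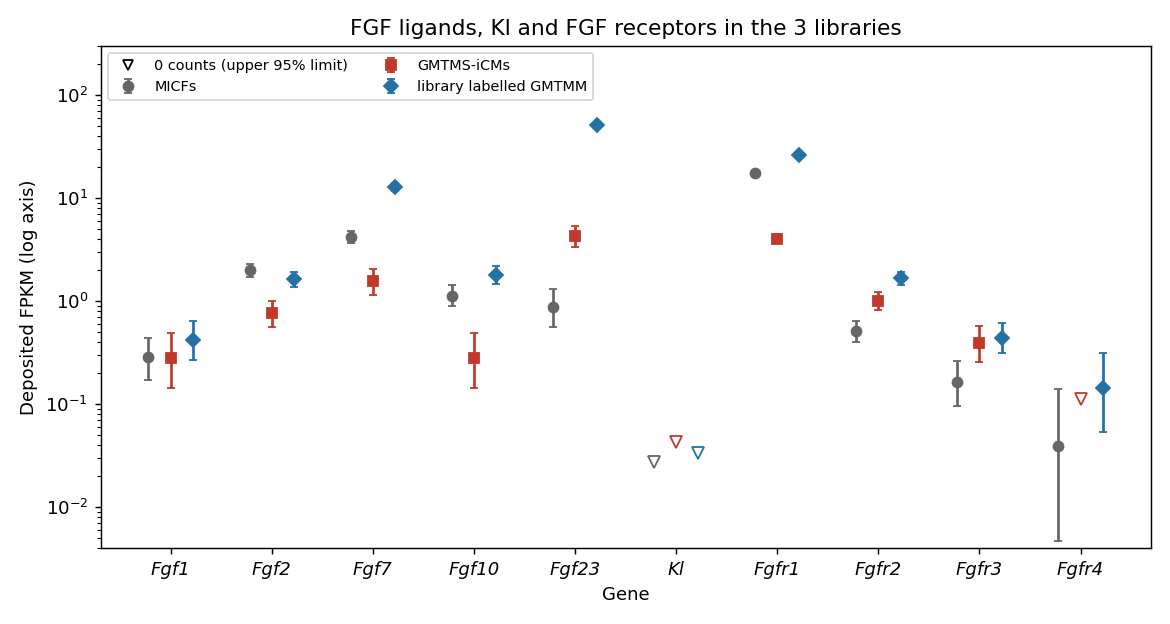
Deposited FPKM of the 10 members (x axis) on a log axis, 1 point per library with its 95% counting interval, and an open triangle at the upper limit where no read was counted. Fgf23 runs from 0.881 to 51.0 FPKM, Fgf7, Fgf10 and Fgfr1 are lowest in GMTMS-iCMs, and Kl has triangles only.

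Fgf7, a ligand that mesenchymal cells make and epithelial cells receive, was counted 197, 47 and 486 times. Its levels were 4.22 FPKM (3.65–4.85), 1.56 FPKM (1.15–2.07) and 12.8 FPKM (11.7–14.0). GMTMS-iCMs were therefore the low library and the library labelled GMTMM the high one, with MICFs between them. Fgf7 was 2.71-fold lower in GMTMS-iCMs than in MICFs (1.96–3.80) and 3.04-fold higher in the library labelled GMTMM (2.57–3.61). The 2 transduced libraries differed 8.22-fold (6.09–11.3).

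Fgf10, a close relative of Fgf7 with the same receptor preference and a known part in heart and lung development, was counted 75, 12 and 97 times. Its levels were 1.13, 0.281 and 1.80 FPKM. The order of the libraries was that of Fgf7, at lower levels. Fgf10 was 4.03-fold lower in GMTMS-iCMs than in MICFs (2.18–8.15), 1.59-fold higher in the library labelled GMTMM (1.17–2.18), and 6.43-fold apart between the transduced libraries (3.52–12.9). Exons of Gm16263 cover 2.67% of the exon bases of Fgf10.

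Fgf2, the classical ligand of fibroblasts, was counted 194, 48 and 129 times, at 1.99, 0.762 and 1.63 FPKM. It was 2.61-fold lower in GMTMS-iCMs than in MICFs (1.89–3.66) and 2.14-fold lower than in the library labelled GMTMM (1.52–3.04). MICFs and the library labelled GMTMM were neighbours that did not differ beyond counting error, with a ratio of 1.22 (0.972–1.54). The antisense gene Nudt6 and Gm43439 share 13.2% of the exon bases of Fgf2, and how the counting used strand is not given in the sources used here, so part of these reads could belong to them.

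Fgf1, the ligand that binds all FGF receptors, was near the limit of detection with 19, 12 and 23 counts and 0.284, 0.278 and 0.424 FPKM. No pair of libraries differed beyond counting error. The ratio to MICFs was 0.979 (0.433–2.12) in GMTMS-iCMs, and it was 1.49 (0.777–2.90) in the library labelled GMTMM, intervals that still allow a 2-fold difference.

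Among the reads of the 5 ligands, Fgf23 took 4.53% in MICFs (2.89–6.72, exact binomial), 37.7% in GMTMS-iCMs (30.8–45.0), but 59.5% in the library labelled GMTMM (57.2–61.8). Per length, as a share of summed FPKM, this was 10.4%, 59.8% and 75.4%. The summed FPKM of the 5 ligands was 8.50, 7.15 and 67.6. In counts the sums were 508, 191 and 1815, so MICFs and GMTMS-iCMs were closer in summed FPKM than in counts. Unlike counts, FPKM is scaled to library size and gives more weight to the short Fgf23. By FPKM Fgf7 led in MICFs and Fgf23 in GMTMS-iCMs.

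Kl, the co-receptor that gives Fgf23 its high affinity for Fgfr1 in the kidney, had 0 counts in every library. With its 9328 bases of exon, 0 counts allow at most 0.027, 0.043 and 0.034 FPKM as the upper 95% limit, so the transcript was not detectable at this depth. Klb, the related co-receptor of the metabolic hormone Fgf21, had 0, 1 and 2 counts, and Fgf21 had 0 in all 3.

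Fgfr1, the main FGF receptor of mesenchymal cells, was counted 2488, 371 and 3024 times. Its levels were 17.5 FPKM (16.8–18.2), 4.05 FPKM (3.64–4.48) and 26.2 FPKM (25.3–27.2), with no overlap of the intervals. GMTMS-iCMs stood apart as the low library. Fgfr1 was 4.33-fold lower there than in MICFs (3.88–4.84) and 6.48-fold lower than in the library labelled GMTMM (5.82–7.24), which in turn exceeded MICFs 1.497-fold (1.419–1.579). Exons of Gm16159 cover 1.66% of its exon bases.

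Fgfr2, known mainly as the receptor of epithelial cells for Fgf7 and Fgf10, was counted 76, 97 and 202 times, at 0.511, 1.01 and 1.67 FPKM. It was higher in both transduced libraries, 1.98-fold in GMTMS-iCMs (1.45–2.71), then 3.27-fold in the library labelled GMTMM (2.503–4.321), which were themselves 1.66-fold apart (1.29–2.13). Fgfr2 shares 3.04% of its exon bases with Ctbp2.

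Fgfr3, a receptor known for its control of bone growth, was counted 17, 26 and 37 times, at 0.165, 0.391 and 0.442 FPKM. Relative to MICFs it was 2.37-fold higher in GMTMS-iCMs (1.24–4.65), and 2.68-fold higher in the library labelled GMTMM (1.47–5.08). The transduced libraries were indistinguishable, with a ratio of GMTMS-iCMs to the library labelled GMTMM of 0.884 (0.514–1.499). The gene G630022F23Rik shares 13.9% of the exon bases of Fgfr3, more than for any other member, so these few reads could be split between the 2 genes.

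Fgfr4, the receptor through which Fgf23 has been linked to cardiomyocyte growth, was counted 2, 0 and 6 times, at 0.039, 0 and 0.145 FPKM. Its ratio between the library labelled GMTMM and MICFs was 3.70 with an interval of 0.661 to 37.4. With the floor of 3 counts in place of 0, GMTMS-iCMs were 1.59-fold lower than the library labelled GMTMM. These counts do not order the libraries.

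The composition of the 4 receptors differed as well. Fgfr1 made up 96.3% of receptor reads in MICFs (95.5–97.0), 75.1% in GMTMS-iCMs (71.0–78.9), against 92.5% in the library labelled GMTMM (91.6–93.4). The share of Fgfr2 was 2.94% (2.33–3.67), 19.6% (16.2–23.4) and 6.18% (5.38–7.06). GMTMS-iCMs thus had a larger part of their receptor reads from Fgfr2 than the other 2 libraries, and Fgfr1 remained the main receptor in all 3.

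**Figure D2:**
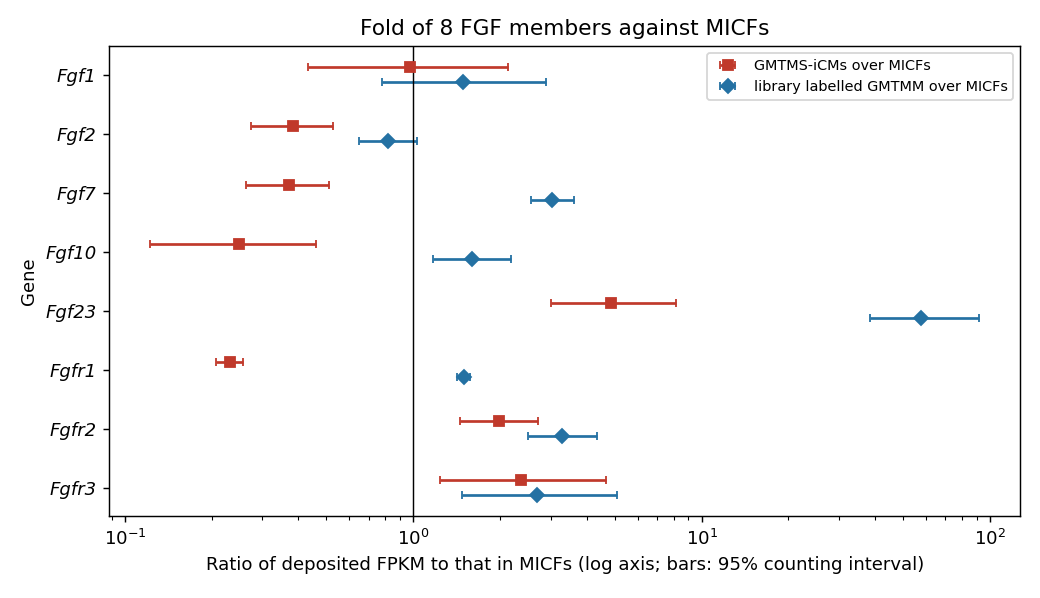
Ratio of deposited FPKM to MICFs on a log axis for the 8 members with over 10 counts in a library, with squares for GMTMS-iCMs, diamonds for the library labelled GMTMM and bars for the 95% counting interval. Fgf7, Fgf10 and Fgfr1 lie on opposite sides of 1 in the 2 transduced libraries, and Fgf23, Fgfr2 and Fgfr3 lie above 1 in both.

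A gene was counted as past the threshold when the difference in log2 of quantile-normalized FPKM plus 1 was over 1, and as past the fold rule when the ratio of FPKM was over 2 and its counting interval excluded 1. In GMTMS-iCMs against MICFs, 1 of the 8 measured members, Fgf23, was higher by over 1, where 9.29% of 15020 genes were, and 1, Fgfr1, was lower, where 9.05% of genes were. By the fold rule 2 members were higher (Fgf23 and Fgfr3), against 15.5% of genes, and 4 were lower (Fgf2, Fgf7, Fgf10 and Fgfr1), against 18.5%. In the library labelled GMTMM against MICFs, 2 members were higher by over 1 (Fgf7 and Fgf23), against 6.55% of 15167 genes, and none was lower, against 3.61%. The fold rule gave 4 higher members (Fgf7, Fgf23, Fgfr2 and Fgfr3), against 13.6% of genes, and none lower, against 9.98%.

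In GMTMS-iCMs against the library labelled GMTMM, none of the 8 members was higher by over 1, against 6.4% of 14713 genes, and 4 were lower (Fgf7, Fgf10, Fgf23 and Fgfr1), against 9.6%. By the fold rule none was higher, against 11.7%, and 5 were lower (the same 4 and Fgf2), against 17.7%. Over the 8 members the median difference was -0.32, 0.35 and -0.81 in the 3 comparisons in this order, beside -0.08, -0.09 and 0.06 over all genes. The 3 comparisons share libraries and are not independent. The medians and the member counts under both rules take in Fgf23, which was chosen by its counts in the library labelled GMTMM. They are therefore descriptions. The 2 rules differ in the pseudocount, the quantile normalization and the use of the counting interval.

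Fgf7, Fgf10 and Fgfr1 had the library order of the summed fibroblast markers (1446, 219 and 2777 FPKM), of which 8 of 8 were lower by over 1 in GMTMS-iCMs, relative to MICFs, and 1 of 8 was higher by over 1 in the library labelled GMTMM, with none at 0 in any library. Endothelial markers were lower as well in GMTMS-iCMs than in MICFs, 7 of 7 by over 1. Over all genes 9.05% were lower by over 1 in GMTMS-iCMs, and 6.55% were higher in the library labelled GMTMM. The part of these cell types in the FGF values was not tested. For Fgf23, the markers of its usual source were set beside it: the osteocalcin gene Bglap had 0, 0 and 1 counts, Ibsp had 0 in all 3, Sp7 had 2, 2 and 0, Dmp1 had 2, 1 and 5, and the osteocyte gene Sost had 43, 0 and 3. The 8 bone markers summed to 723, 1051 and 538 FPKM, nearly all of it Spp1, which macrophages also express. The 6 epicardial and mesothelial markers summed to 4.52, 2.19 and 8.95 FPKM. In the library labelled GMTMM 1 of the 5 measured, Wt1 (8, 6 and 128 counts), was higher by over 1, beside 6.55% of all genes. By the fold rule 4 of the 5 were higher there and none lower, beside 13.6% and 9.98% of all genes. The 4 were Wt1, Msln (2, 0 and 24 counts), Upk1b (3, 0 and 15 counts) and Upk3b (23, 31 and 58 counts). The 6 smooth muscle markers summed to 240, 397 and 538 FPKM. Of these, 2 were higher by over 1 in each transduced library, beside 9.29% and 6.55% of all genes. In GMTMS-iCMs 1 was lower, beside 9.05%. The part of these markers in the level of Fgf23 was not tested.

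The rest of the pathway was read from 75 other genes in 6 lists. Of these, 53 had over 10 counts in the higher library for GMTMS-iCMs against MICFs, with 10 higher and 14 lower by over 1, where 9.29% and 9.05% of all genes were. For the library labelled GMTMM against MICFs, 9 were higher and 3 lower of 54 measured, beside 6.55% and 3.61% of all genes, and without quantile normalization 10 were higher and none lower. For GMTMS-iCMs against the library labelled GMTMM, 1 was higher and 11 lower of 49 measured, beside 6.4% and 9.6%.

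The other ligands and co-receptors were rare. Of 19 such genes only 5 or 6 were measurable against MICFs, and none differed by over 1 except Fgf18, a ligand of bone and lung development, which had 4, 7 and 28 counts (0.234, 0.635 and 2.02 FPKM) and was 8.62-fold higher than in MICFs in the library labelled GMTMM (3.02–33.8). Fgf9, which epicardium and endocardium release in the embryonic heart, ran the other way with 103, 58 and 29 counts, and was 2.88-fold lower in the library labelled GMTMM (1.89–4.52). The decoy receptor Fgfrl1 had 262, 107 and 221 counts. It was 1.58-fold lower in GMTMS-iCMs than in MICFs (1.26–2.00).

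Heparan sulfate proteoglycans are the surface and matrix molecules that hold FGFs and present them to their receptors, and their list also held 2 secreted FGF-binding proteins. In GMTMS-iCMs against MICFs 3 of 11 measured were higher by over 1 and 5 lower, where 9.29% and 9.05% of all genes were. In the library labelled GMTMM 4 were higher and none lower, beside 6.55% and 3.61% of all genes. The syndecan Sdc4 had 2469, 24095 and 17043 counts (67.4, 1019 and 573 FPKM), so it was high in both transduced libraries, 15.1-fold (14.5–15.8) and 8.50-fold (8.15–8.87) above MICFs. The glypican Gpc3, with 13, 122 and 353 counts, was 14.5-fold (8.19–28.1) and 33.5-fold (19.3–63.5) above MICFs. Gpc1 had 136, 338 and 406 counts and was 3.85-fold (3.15–4.73) and 3.677-fold (3.021–4.499) above MICFs. These 3 were low in MICFs only.

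A second group of proteoglycans was low in GMTMS-iCMs only. Gpc4, with 1367, 98 and 1238 counts, was 9.004-fold lower there than in MICFs (7.331–11.17). The perlecan gene Hspg2, of the basement membrane, with 22240, 2575 and 16613 counts, was 5.58-fold lower (5.35–5.81), and Gpc6, with 858, 96 and 786 counts, was 5.77-fold lower (4.67–7.20). Sdc1 had 1243, 315 and 4221 counts. It was 2.55-fold lower in GMTMS-iCMs than in MICFs (2.25–2.89), 4.18-fold higher in the library labelled GMTMM (3.93–4.46), and 10.65-fold apart between the transduced libraries (9.500–11.99).

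Of 9 adaptors that link the receptors to ERK, 1 was higher and 1 lower by over 1 in GMTMS-iCMs, about the share over all genes (9.29% and 9.05%), and none in the library labelled GMTMM. Gab1, a docking protein, had 799, 1412 and 1270 counts and was 2.74-fold higher in GMTMS-iCMs (2.51–2.99). Plcg1, the phospholipase that binds FGF receptors directly, had 1526, 262 and 813 counts and was 3.76-fold lower (3.30–4.30). Frs2, the receptor's own docking protein, had 553, 601 and 570 counts.

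Of 20 feedback inhibitors and transcriptional targets of FGF and ERK signalling, 3 were higher and 8 lower by over 1 in GMTMS-iCMs against MICFs. Over all genes 9.29% and 9.05% were, and the median of the list was -0.41, beside -0.08 over all genes. In the library labelled GMTMM 3 were higher and 3 lower (Dusp6, Fos and Ccnd1), beside 6.55% and 3.61% of all genes. The median there was 0.09 beside -0.09. By the fold rule 5 were higher and none lower, beside 13.6% and 9.98% of all genes. Many of these genes also answer to other receptors and to stress.

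Of the 4 Sprouty genes, inhibitors that FGF signalling induces and that then dampen it, Spry1, Spry2 and Spry4 had the order of Fgf7 and Fgfr1, while the rarer Spry3, with 25, 3 and 10 counts, was highest in MICFs. Spry1 had 655, 70 and 1084 counts (15.7, 2.59 and 31.9 FPKM), so it was 6.04-fold lower in GMTMS-iCMs than in MICFs (4.72–7.84) and 2.04-fold higher in the library labelled GMTMM (1.85–2.25). Spry4 had 468, 66 and 671 counts. It was 4.58-fold lower (3.53–6.02) and 1.77-fold higher (1.57–1.99) in the same comparisons. Spry2 had 539, 157 and 791 counts and was 2.22-fold lower (1.85–2.66) and 1.81-fold higher (1.62–2.02).

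Other readouts of ERK differed in their order. Dusp6, the phosphatase that removes the activating phosphates of ERK, had 2721, 509 and 1149 counts and was below MICFs in both transduced libraries, 3.45-fold (3.14–3.80) and 1.92-fold (1.79–2.06). The transcription factor Etv4 had 67, 0 and 47 counts, at least 14.4-fold lower in GMTMS-iCMs than in MICFs against the floor of 3 counts. Its relative Etv5 had 470, 414 and 383 counts, so the 2 factors, which are often used together as readouts of FGF, differed in GMTMS-iCMs. Egr1, an immediate early gene, had 12748, 2994 and 11397 counts and was 2.75-fold lower in GMTMS-iCMs (2.64–2.86). By FPKM it had the order of Fgf7, with the library labelled GMTMM 1.10-fold above MICFs (1.07–1.13), and so had Il17rd, an inhibitor of FGF receptors, with 142, 32 and 163 counts, whereas after quantile normalization the difference of Egr1 from MICFs was -0.52 on the log2 scale. Fos, with 13986, 4233 and 8413 counts, and Ccnd1, with 1598, 335 and 710 counts, were below MICFs in both libraries.

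Inhibitors and targets that were higher than MICFs in both transduced libraries stood beside them. Spred1, a relative of the Sprouty genes that restrains the Ras pathway, had 1770, 6465 and 3889 counts and was 5.66-fold (5.37–5.97) and 2.71-fold (2.56–2.87) higher. Dusp5, a nuclear phosphatase of ERK, had 1042, 2197 and 2170 counts and was 3.27-fold (3.03–3.52) and 2.57-fold (2.38–2.77) higher. Flrt3, a membrane protein that binds FGF receptors, had 8, 322 and 169 counts. Myc had 325, 389 and 1149 counts and was 4.36-fold higher in the library labelled GMTMM (3.85–4.94).

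**Figure D3:**
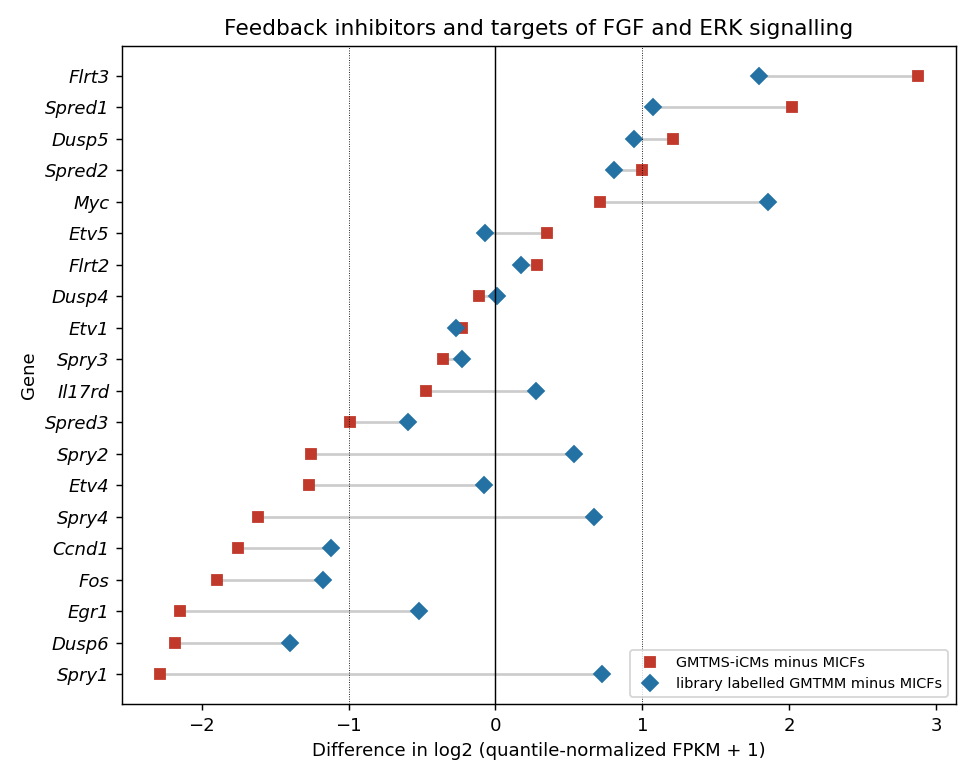
Difference from MICFs in log2 of quantile-normalized FPKM plus 1 (x axis) for the 20 feedback inhibitors and targets (y axis), with squares for GMTMS-iCMs and diamonds for the library labelled GMTMM, joined by a grey line, and dotted lines at -1 and 1. Spry1, Spry2 and Spry4 lie left of 0 in GMTMS-iCMs and right of 0 in the other library, while Dusp6, Fos and Ccnd1 lie left and Flrt3 and Spred1 right of 0 in both.

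Genes that decide how much Fgf23 protein leaves a cell intact were measured beside its transcript. Of 8 processing enzymes and bone-side regulators 5 were measured. In GMTMS-iCMs 2 were above MICFs by over 1 and none below, where 9.29% and 9.05% of all genes were. In the library labelled GMTMM none was past 1, beside 6.55% higher and 3.61% lower over all genes. Fam20c, the kinase whose phosphorylation of Fgf23 favours its cleavage, had 1102, 3064 and 1835 counts and was 4.31-fold (4.02–4.62) and 2.05-fold (1.90–2.21) above MICFs. Furin, a protease that cleaves Fgf23, had 2282, 4454 and 3130 counts and was 3.02-fold (2.87–3.18) and 1.69-fold (1.60–1.78) above MICFs. Galnt3, whose glycosylation protects Fgf23 from cleavage, had only 12, 12 and 7 counts. Pcsk5, a protease related to Furin, had 79, 11 and 114 counts. Thus Fam20c and Furin were highest in GMTMS-iCMs, and Pcsk5, like Fgf23, in the library labelled GMTMM. Protein was not measured.

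Of the 7 kidney targets and vitamin D genes 3 were measured. In each transduced library 1 was higher by over 1, where 9.29% and 6.55% of all genes were. This was Vdr, the vitamin D receptor, with 33, 168 and 389 counts (0.406, 3.20 and 5.89 FPKM), 7.89-fold (5.41–11.8) and 14.5-fold (10.2–21.4) above MICFs. Vdr thus shared with Fgf23 the order of the libraries. Cyp24a1, which degrades vitamin D, and the kidney phosphate transporter Slc34a1 had no count in any library, while the general phosphate transporters Slc20a1 (1548, 1098 and 1172 counts) and Slc20a2 (300, 354 and 459 counts) were found in all 3.

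The genes whose pattern was most like that of Fgf23 were found by the distance between the shares of summed FPKM in the 3 libraries, over 12115 genes with at least 100 counts in all. Fgf23 had 1.57% of its summed FPKM in MICFs, 7.61% in GMTMS-iCMs, but 90.8% in the library labelled GMTMM. The closest were Ramp3, which modifies calcitonin-type receptors and adrenomedullin signals (4, 12 and 184 counts), Tnfaip6, a hyaluronan-binding protein of inflammation (79, 251 and 3666 counts), the cytokine gene Il6 (122, 772 and 11635 counts), the hyaluronan synthase Has1 (7, 94 and 1458 counts) and the interleukin receptor subunit Il2rb (14, 20 and 333 counts). Their ratios between the library labelled GMTMM and MICFs were 56.7 (21.8–210), 57.2 (45.8–72.4), 118 (98.3–142), 257 (124–639) and 29.3 (17.2–54.2), in this order, beside 57.8 for Fgf23. Only 18 genes lay within a distance of 0.05 of Fgf23. Because the genes were picked by these shares, their ratios and their order of libraries largely follow from the choice. The likeness rests on 3 libraries, and with so few points unrelated genes can have nearly the same shares.

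The other members had more company. Within 0.05 of Fgfr1 lay 165 genes, led by Ces2g, Rcn1, Epdr1, Mark1 and Nedd9, and within 0.05 of Fgf10 lay 147, led by Cfi, Mxra8, Cacnb3, Camk2n1 and Slc1a4. Fgf7 had 28, led by Gprc5a, Fmo1, Igfbp6, Ly75 and Egfr. Fgfr1 and Fgf10 themselves had nearly the same shares, 36.7%, 8.47% and 54.9% for the receptor and 35.2%, 8.73% and 56.1% for the ligand, whereas Fgf7 had 22.7%, 8.38% and 68.9%.

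The levels of the genes next to Fgf23 on chromosome 6 were set beside its own. Within 250 kb lay 23 genes, of which 6 had over 10 counts in a library. None of the 6 was higher by over 1 in either transduced library than in MICFs, where 9.29% and 6.55% of all genes were. With so few genes, none is near these shares. The nearest, Tigar, a regulator of glycolysis that starts or ends 3708 bases away, had 170, 84 and 118 counts (3.23, 2.47 and 2.76 FPKM). Ccnd2, a cyclin, had 3119, 322 and 1731 counts and was highest in MICFs. Ndufa9, a subunit of respiratory complex I, had 438, 292 and 420 counts and differed from MICFs by -0.16 and 0.0032 on the log2 scale. D6Wsu163e had 382, 149 and 147 counts, the repair gene Rad51ap1 had 58, 7 and 28, and the pseudogene Tpi-rs11 had 31, 25 and 29. The neighbouring ligand Fgf6, 44715 bases away, had 0, 3 and 1 counts.

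**Figure D4:**
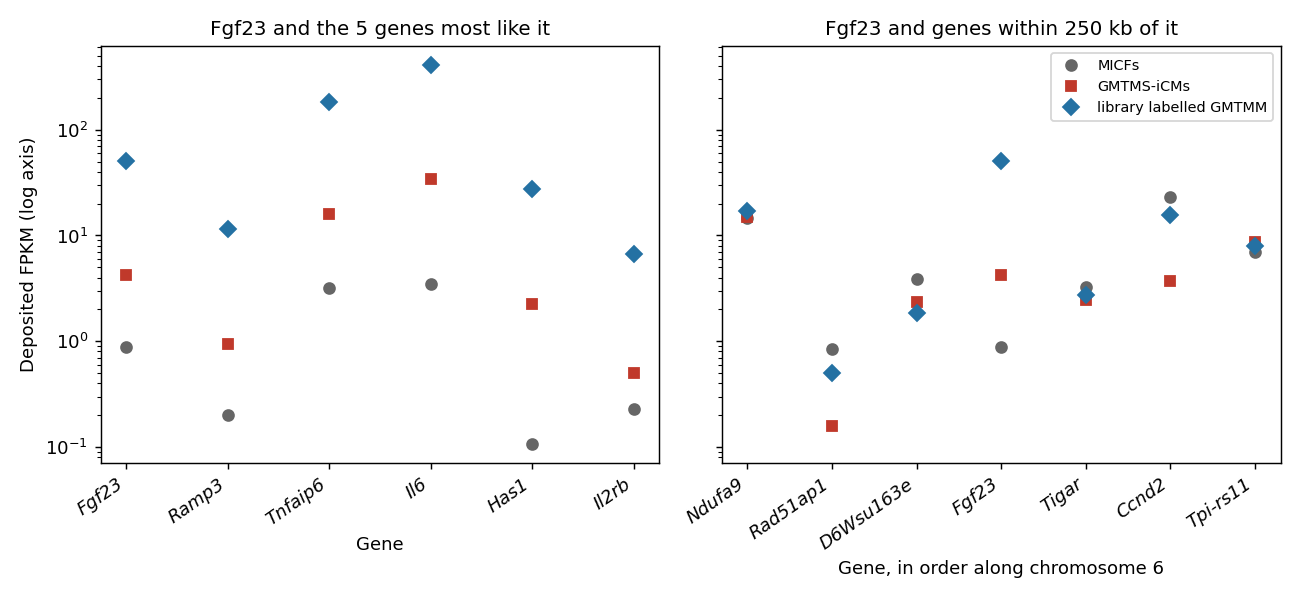
Deposited FPKM on a log axis, 1 point per library, of Fgf23 with the 5 genes most like it in pattern (left) and with the 6 counted genes within 250 kb of it, in chromosome order (right). The 6 genes on the left share the order of the libraries, which largely follows from their choice by likeness. On the right only Fgf23 spans from 0.881 to 51.0 FPKM.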

How the data were processed

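RNA-seq of 3 mouse libraries, 1 per condition, was analysed for 10 FGF genes. The authors deposited the raw count of each of 54532 genes and the FPKM of each gene, which they had scaled by library sizes of 14389264, 9287868 and 11680913 (in the order MICFs, GMTMS-iCMs, library labelled GMTMM), that is 1.21, 0.874 and 0.981 times the library totals of 11861773, 10624118 and 11904484 counts. These sizes were recomputed from counts and gene lengths. The submitters' processing notes name HISAT2 2.0.5 and mm9, but 54409 of the gene identifiers were found in GENCODE M21 (GRCm38), 98.3% of them with the same span, so coordinates are those of GRCm38. Reads were paired, of 150 nucleotides. The counting tool and its use of strand are not given in the sources used here. The column of MICFs carries an abbreviation, and it was given to that sample since both remaining columns carry a cocktail's name.

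FPKM were quantile-normalized over the 3 libraries and put on a log2 scale with a pseudocount of 1, after the study's methods, and a difference over 1 was the threshold, applied where the higher library had over 10 counts. Counts of genes under alternative processing were made without this minimum. A fold is the ratio between 2 deposited FPKM values, and its 95% interval is Clopper-Pearson on the counts. Intervals of single levels are exact Poisson, and 3 counts were the floor. Scripts were tested on simulated data. The members and the lists were chosen with earlier results of these data known. Named genes are the members, at most 3 per list in each direction, a few fixed readouts, the 5 genes most like Fgf23, Fgfr1, Fgf10 and Fgf7, and the counted neighbours of Fgf23. Spry3, Il17rd, Fgf6, Cyp24a1, Slc34a1 and the single marker genes with values were added after their values were seen. Promoter sequences are from RefSeq. The tools were Python 3.11.15, pandas 2.3.3, SciPy 1.17.1, R 4.3.3, edgeR 4.0.16 and DESeq2 1.42.0, the last 2 for alternative scalings only.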

Additional observations from a re-analysis of the deposited data

Results flagged for a closer look

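By deposited FPKM, Fgf7, Sdc1 and Spry1 stood on opposite sides of MICFs in the 2 transduced libraries, each by over 2-fold in both directions. After quantile normalization, on the log2 scale, the differences were -0.92 and 1.39 for Fgf7, -1.50 and 1.64 for Sdc1, and -2.28 and 0.73 for Spry1. On that scale only Sdc1 passed the threshold of 1 in both directions. The library labelled GMTMM exceeded GMTMS-iCMs 8.22-fold for Fgf7, 10.7-fold for Sdc1 and 12.3-fold for Spry1. With 1 library per condition, this difference between the 2 libraries was not tested.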

How the results depend on the processing

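For the counts of genes, 41 of 60 alternatives gave a count within 1.5 times of the reported one. This rule compares totals and not directions. The minimum of over 10 counts was not applied here, so all 10 members and all 75 other genes could be counted. The 7 members with DESeq2 size factors in GMTMS-iCMs thus take in Fgfr4, with 0 against 2 counts. Fgfr4, with 6 against 2 counts, is also among the 5 with TMM and the 5 with DESeq2 size factors in the library labelled GMTMM. For GMTMS-iCMs against MICFs, the 2 members past the threshold became 6 with a pseudocount of 0.1, 6 with TMM log2 CPM of edgeR, 7 with DESeq2 size factors, 5 with CPM of the library total, 5 at a 1.5-fold threshold and 6 under the fold rule, and the 24 other pathway genes became 38 with DESeq2 size factors. For the library labelled GMTMM against MICFs, the 2 members became 5 with TMM, 5 with DESeq2 size factors and 4 under the fold rule, and the 12 other pathway genes became 20 with TMM, 22 with DESeq2 size factors and 25 at 1.5-fold, and without quantile normalization the 9 higher and 3 lower became 10 and 0. For GMTMS-iCMs against the library labelled GMTMM, the 12 other pathway genes became 19 with a pseudocount of 0.1, 26 with TMM, 30 with DESeq2 size factors, 19 with CPM, 29 at 1.5-fold and 21 under the fold rule. Over all genes, counted with the minimum, more passed the threshold as well. In GMTMS-iCMs against MICFs 1395 higher and 1359 lower genes became 2131 and 2631 with a pseudocount of 0.1. They became 2140 and 3163 with TMM, 2346 and 3022 with DESeq2 size factors, and 1315 and 3772 with CPM. With DESeq2 size factors, 993 and 548 became 2087 and 1651 in the library labelled GMTMM against MICFs. Between the transduced libraries 942 and 1412 became 1759 and 2733. The cause was not tested.

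Of 228 alternative values of the members' differences, 180 moved by less than the counting interval and 48 by more. The sign changed for Fgf1 in GMTMS-iCMs against MICFs (-0.29 to 0.04) and for Fgfr3 between the transduced libraries (-0.25 to 0.03), both near 0 throughout. The difference of Fgf23 ranged from 1.40 to 2.28 in GMTMS-iCMs and from 4.58 to 5.78 in the library labelled GMTMM. CPM of the library total moved the median of all genes to -0.46, -0.27 and -0.13 in the 3 comparisons and the share of higher genes among those past 1 from 50.7% to 25.9%, from 64.4% to 39.8% and from 40.0% to 27.3%. TMM gave 40.4% for the first and FPKM without quantile normalization 74.5% for the second. A filter of at least 1 FPKM left no value for Fgf1, Kl, Fgfr3 and Fgfr4. Quantile normalization over the 2 libraries compared was added after seeing the data. No replicate could be left out. No paired analysis was possible because no condition has more than 1 library.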
